A study of Mus musculus with 8 samples.

Results

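The receptor genes Ccr7, S1pr1, S1pr5 and Cxcr4 were described in T cells sorted from mouse bone marrow. They were taken by their symbols from the gene list of the 4 single-cell libraries, where they are 4 of 32285 genes, and each symbol matched 1 gene. CCR7 is the chemokine receptor that follows CCL19 and CCL21 into lymph nodes, and naive and central memory T cells carry it. S1PR1 senses sphingosine-1-phosphate and lets T cells leave lymphoid organs, while S1PR5 is a second receptor for the same lipid that is best known from natural killer cells and effector T cells and their exit from the marrow. CXCR4 binds CXCL12, which marrow stromal cells make, and holds cells in the marrow.

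In the annotation of GRCm38 (GENCODE M21) all 4 are protein coding genes on the minus strand. Ccr7 (ENSMUSG00000037944) lies at chr11:99144196-99155077 and S1pr1 (ENSMUSG00000045092) at chr3:115710433-115715072. S1pr5 (ENSMUSG00000045087) lies at chr9:21242912-21248443 and Cxcr4 (ENSMUSG00000045382) at chr1:128588199-128592293.

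The study compared C57BL/6 mice that express the leukemia fusion gene Runx1::Runx1t1 with littermates that do not. The Runx1::Runx1t1 group carried Runx1 Runx1t1/+ with Mx1-Cre, and the control group, named WT in the sample labels, carried Runx1 Runx1t1/+ without Mx1-Cre according to the study's methods. The Mx1 promoter responds to interferon in many hematopoietic cells, so both groups received Poly(I:C), an inducer of interferon, at 5 mg/kg in 4 injections, and marrow was taken 4 weeks later. The sorted cells were CD3+ and negative for mCherry, the reporter of the fusion, so the T cells measured are those without the reporter. Marrow was pooled from 2 mice at a time into 2 pools per group, and every pool has 1 gene expression library with a matched T cell receptor library. Mice within a pool cannot be told apart, and all p-values below rest on these 4 pools alone. Those of the group contrasts measure the spread between pools. Those of classes, clone sizes and interactions measure how far differences within a pool vary from pool to pool.

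The libraries held 90958101 to 102883449 UMIs (unique molecular identifiers, 1 per captured transcript) in 56649 barcodes, and 53033 cells were kept. Among the kept cells 1425 barcode sequences occurred in more than 1 library, so each of them stands for more than 1 cell. Counted per pool there were 28830 clonotypes, and 8 clonotypes were found in more than 1 pool. Cells with a Cd3d, Cd3e or Cd3g UMI were divided by co-receptor UMIs into Cd8 T cells (26462), Cd4 T cells (5774), Foxp3 T cells (2628) and co-receptor-negative T cells, without a UMI of Cd8a, Cd8b1, Cd4 or Foxp3 (12959). The 3 Cd3 genes were detected in all 4 classes, and Foxp3, Il2ra, Ikzf2 and Ctla4 together reached 1695 to 2629 CPM (counts per 1000000 UMIs) in Foxp3 T cells against 68.7 to 529 CPM in the others. A Cd3 UMI in every class, and Foxp3 UMIs in Foxp3 T cells alone, were set by the gate, so neither tests the classes. Runx1t1 had 15 and 37 UMIs in the control pools and 100 and 109 in the Runx1::Runx1t1 pools. Over the T cells of the 4 classes, neutrophil and monocyte genes stood higher in control pools 1 and 2 (799 and 239 CPM summed over 6 genes, none at 0). Runx1::Runx1t1 pools 1 and 2 held 23.8 and 24.0 CPM.

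The 4 receptors were distributed differently over the T cell classes. Ccr7 was highest in Cd8 T cells, S1pr1 in Cd4 and Foxp3 T cells, S1pr5 in Cd8 T cells, and Cxcr4 in Foxp3 and co-receptor-negative T cells. S1pr5 was not detected in any Foxp3 T cell. Levels are given in CPM, with the UMIs of the gene and of the whole class summed per pool, and in such sums fewer positive cells and fewer transcripts per cell cannot be told apart.

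**Figure D1:**
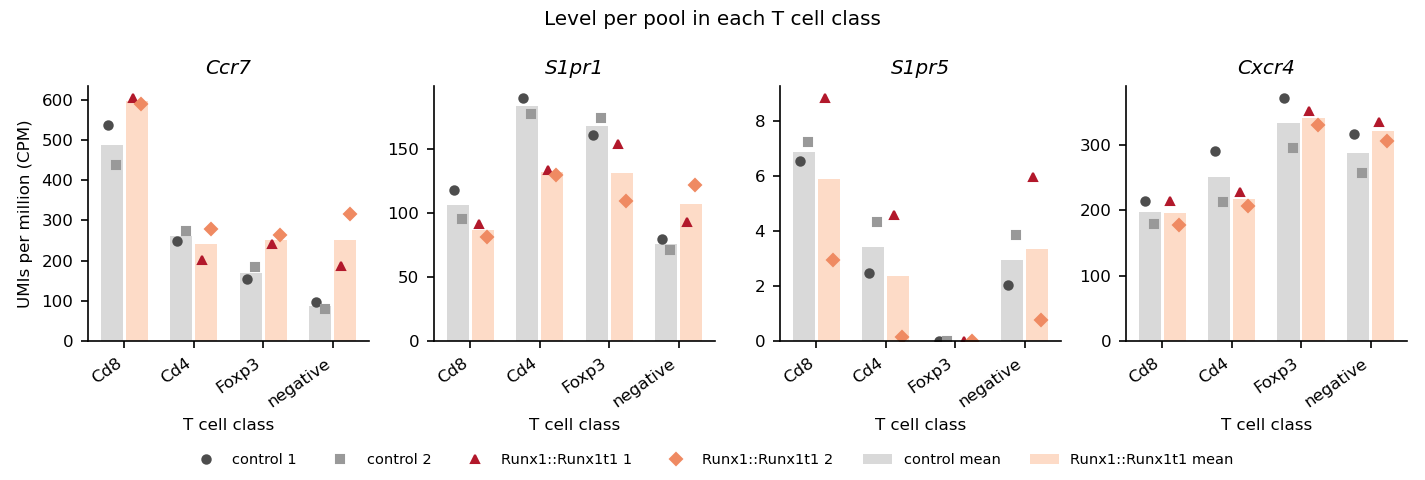
Levels of Ccr7, S1pr1, S1pr5 and Cxcr4 in CPM (vertical axes) in the 4 T cell classes (horizontal axis), with 1 symbol per pool and bars from 0 to the mean of each group's 2 pools. Ccr7 was highest in Cd8 T cells in every pool, S1pr5 was at 0 in Foxp3 T cells of every pool, and Cxcr4 was higher in Foxp3 than in Cd8 T cells in every pool.

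Ccr7 reached 537 and 437 CPM in the Cd8 T cells of control pools 1 and 2, and 604 and 588 CPM in those of Runx1::Runx1t1 pools 1 and 2. In Cd4 T cells the same pools, in this order, gave 248, 273, 202 and 279 CPM, and in Foxp3 T cells 153, 183, 242 and 263 CPM. The Cd8 values lay above all others, and the ranges of Cd4 and Foxp3 T cells overlapped. In co-receptor-negative T cells Ccr7 stood at 96.7 and 79.2 CPM in the control pools and at 186 and 317 CPM in the Runx1::Runx1t1 pools, the widest spread of any class. As means over the 4 pools the order was Cd8 (541 ± 75 CPM, SD), Cd4 (250.2 ± 35.2), Foxp3 (210.3 ± 50.7) and co-receptor-negative T cells (169.7 ± 109). In a fit over all 16 sums with the pool as a block (edgeR quasi-likelihood test, Benjamini-Hochberg adjustment), Ccr7 was lower in Cd4 than in Cd8 T cells by 1.37 on the log2 scale (log2 fold change -1.37, SE 0.25, adjusted p = 0.00054), in a contrast in which 37.6% of the 12229 genes tested passed. Foxp3 against Cd4 T cells gave a log2 fold change of -0.32 (SE 0.26, adjusted p = 0.41), where 24.5% of genes passed. Co-receptor-negative against Cd8 T cells gave -2.01 (SE 0.25, adjusted p = 5e-05), where 28.7% passed.

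S1pr1 followed another order. Its level was 189.8, 178, 134 and 130.0 CPM in the Cd4 T cells and 161, 174, 154 and 109 CPM in the Foxp3 T cells of the control pools and then the Runx1::Runx1t1 pools. Cd8 T cells held 118, 95.4, 91.7 and 81.2 CPM, and co-receptor-negative T cells 80.0, 71.5, 92.8 and 122 CPM. Cd4 T cells lay above Cd8 T cells of the same pool in all 4 pools, by 0.43 on the log2 scale (SE 0.16), and the edgeR test missed the threshold (adjusted p = 0.053), while DESeq2 passed it (adjusted p = 0.040). The means over the 4 pools were 158 ± 30.4 CPM in Cd4, 149.7 ± 28.2 in Foxp3, 96.6 ± 15.4 in Cd8 and 91.5 ± 21.9 in co-receptor-negative T cells (SD, n = 4). The gap between Foxp3 and Cd4 T cells did not exceed its spread (log2 fold change -0.11, SE 0.18, adjusted p = 0.72, edgeR), nor did that between co-receptor-negative and Cd8 T cells (-0.26, SE 0.16, adjusted p = 0.28). The latter depended on the gate: with at least 2 co-receptor UMIs asked of Cd8 T cells and at least 6000 UMIs of co-receptor-negative ones, S1pr1 was lower in co-receptor-negative T cells (-0.74, SE 0.14, adjusted p = 0.0013, edgeR).

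S1pr5 was a gene of few UMIs. Cd8 T cells held 6.52, 7.21, 8.81 and 2.95 CPM in the control and then the Runx1::Runx1t1 pools, 1285 UMIs in all. Cd4 T cells held 2.48, 4.31, 4.56 and 0.165 CPM, and co-receptor-negative T cells 2.03, 3.85, 5.94 and 0.775 CPM. Runx1::Runx1t1 pool 2 was the lowest of the 4 pools in each of these 3 classes. S1pr5 was lower in Cd4 than in Cd8 T cells (log2 fold change -1.68, SE 0.33, adjusted p = 0.0019, edgeR) and lower in co-receptor-negative than in Cd8 T cells (-1.38, SE 0.29, adjusted p = 0.0041). The stricter gate moved the latter to -2.65 (adjusted p = 0.00035). Both differences rested on the pool block: without it the adjusted p was 0.14 and 0.25. The 2628 Foxp3 T cells held no S1pr5 UMI among 13205328, a count that allows up to 0.227 CPM and up to 0.114% of cells with a UMI, by counting error alone. Against that limit the level over all pools was at least 11.5-fold lower than in Cd4 T cells (86 UMIs, 2.61 CPM) and at least 27.7-fold lower than in Cd8 T cells (6.30 CPM), and the edgeR test of Foxp3 against Cd4 T cells passed (adjusted p = 0.0024). Of the 86 UMIs of Cd4 T cells, 53 came from Runx1::Runx1t1 pool 1. In Runx1::Runx1t1 pool 2 the limit for Foxp3 T cells, 0.732 CPM, lay above the Cd4 level of 0.165 CPM, so no difference could be seen there.

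Cxcr4 had nearly the reverse order of Ccr7. It stood at 372, 296, 351 and 330.2 CPM in Foxp3 T cells and at 317, 257, 335 and 306 CPM in co-receptor-negative T cells, in the same order of pools. Cd4 T cells held 291, 212, 228 and 207 CPM and Cd8 T cells 215, 179, 215 and 178 CPM. The means were 337 ± 32.3, 304 ± 33.5, 234 ± 38.8 and 197 ± 21.1 CPM (SD, n = 4). Foxp3 T cells exceeded Cd4 T cells by 0.50 (SE 0.06, adjusted p = 5e-05), and co-receptor-negative T cells exceeded Cd8 T cells by 0.45 (SE 0.06, adjusted p = 7.8e-05, edgeR). Between Cd4 and Cd8 T cells the call depended on the scaling. The TMM factors of edgeR, which set the bulk of genes equal, moved Cd4 against Cd8 T cells by -0.15 to -0.34 on the log2 scale in the 4 pools, and Cxcr4 then gave -0.02 (SE 0.06, adjusted p = 0.85). On total UMIs, where the median of all genes was 0.26, Cxcr4 gave 0.25 (adjusted p = 0.0052) and S1pr1 0.70 (adjusted p = 0.0039), while Ccr7 (-1.10) and S1pr5 (-1.42) kept their direction and their call.

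The share of cells with at least 1 UMI gave a similar picture when cells were thinned to 2000 UMIs, which removes the depth gap between classes (median 7050.5 UMIs in Cd8 and 5174 in Cd4 T cells). Cells under 2000 UMIs were left out of the thinned shares: 513 Cd8, 174 Cd4, 152 Foxp3 and 1374 co-receptor-negative T cells. Ccr7 was then detected in 37.4 to 49.8% of Cd8 T cells over the 4 pools (49.5 to 69.7% unthinned), in 16.3 to 26.4% of Cd4, in 15.2 to 20.2% of Foxp3 and in 10.6 to 28.3% of co-receptor-negative T cells. S1pr5 was detected in 0.795 to 2.08% of thinned Cd8 T cells (1.63 to 4.65% unthinned). Cxcr4 was detected in 44.0 to 49.2% of Foxp3 and in 24.5 to 32.8% of Cd8 T cells, and S1pr1 in 19.7 to 27.8% of Cd4 and in 14.0 to 21.4% of Cd8 T cells. Barcodes without a Cd3 UMI that carried at least 3 UMIs of progenitor genes served as a background for free RNA (853 cells, median 12163 UMIs). They showed Ccr7 in at most 1.24%, S1pr1 in 2.78 to 7.74% and S1pr5 in 0% of thinned cells. Cxcr4 was found in 25 and 5.88% of them in control pools 1 and 2, and in 2.48 and 1.24% in Runx1::Runx1t1 pools 1 and 2. Its level there was 118 and 39.4 CPM in the control and 21.7 and 19.4 CPM in the Runx1::Runx1t1 pools, without overlap. Hematopoietic progenitors are themselves known to make Cxcr4, and the source of this difference was not tested.

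The receptors were next compared between T cells of expanded clonotypes and T cells whose clonotype was seen once. A clonotype is the set of cells in 1 pool with the same nucleotide sequence of both receptor chains in the CDR3, the part that contacts antigen. The share of Cd8 T cells in clonotypes of 5 or more cells, among those with both chains, was 2.90 and 6.82% in the control pools and 18.6 and 40.6% in the Runx1::Runx1t1 pools. These were 136 and 374 cells in the control pools and 1007 and 2213 cells in the Runx1::Runx1t1 pools. Of the 2213 cells of Runx1::Runx1t1 pool 2, 1086 belonged to 1 clonotype, so the expanded values of that pool lean on it. Expanded Cd8 T cells had far less Ccr7, less S1pr1 and, in 3 of the 4 pools, over 14-fold more S1pr5 than single ones, while Cxcr4 did not pass and its CPM lay higher in both control pools and lower in both Runx1::Runx1t1 pools.

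**Figure D2:**
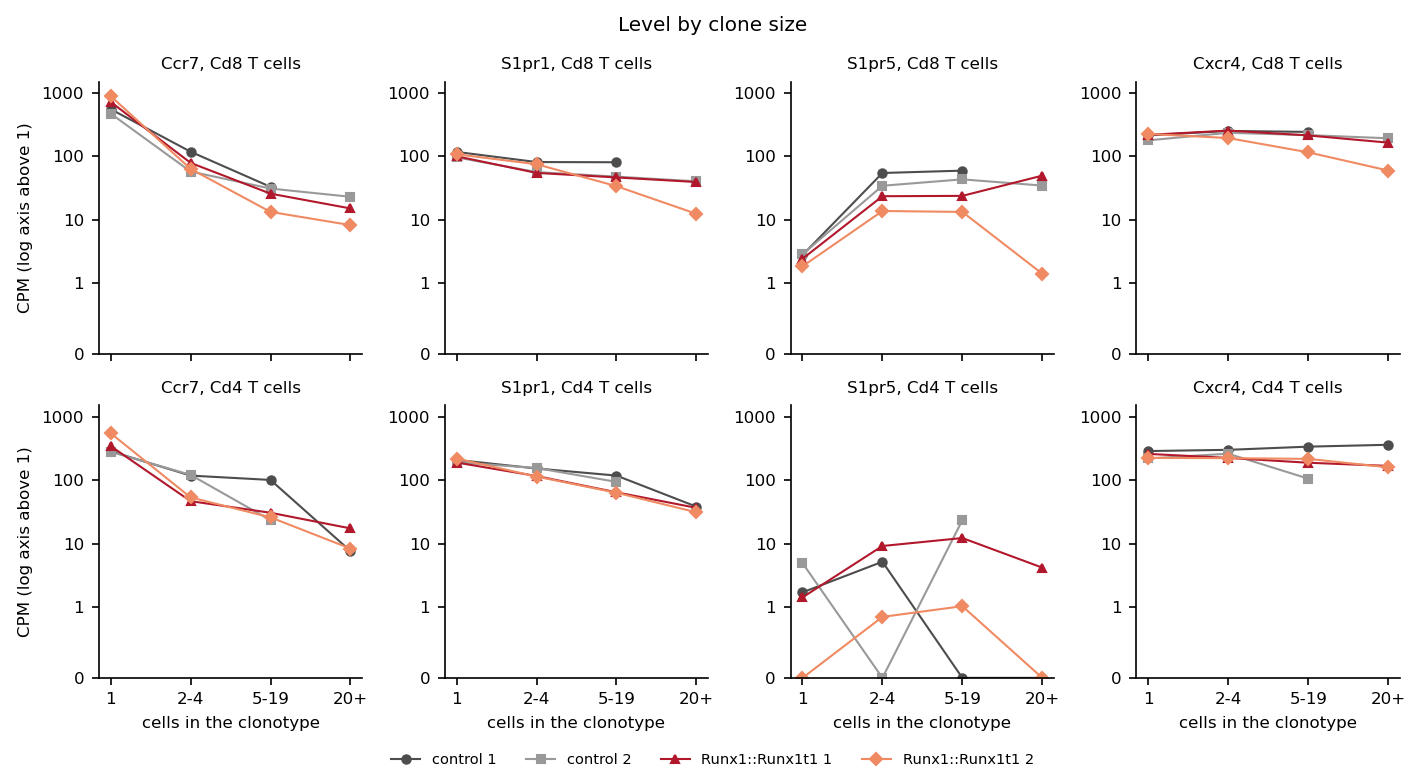
Levels of the 4 receptor genes in CPM (vertical axes, logarithmic above 1 and linear down to 0) against clone size (clonotypes of 1, 2 to 4, 5 to 19 and 20 or more cells) in Cd8 T cells in the upper and Cd4 T cells in the lower row, 1 line per pool. Ccr7 of Cd8 T cells was lower at each larger clone size in every pool, and S1pr5 of Runx1::Runx1t1 pool 2 was 1.42 CPM in the largest Cd8 clonotypes while the other two pools with such clonotypes held 34.5 and 49.5 CPM.

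Ccr7 in Cd8 T cells seen once was 551 and 469 CPM in the control pools and 716 and 884 CPM in the Runx1::Runx1t1 pools. In clonotypes of 5 or more cells it was 33.0 and 29.0 CPM in the control pools and 19.6 and 8.91 CPM in the Runx1::Runx1t1 pools. The level was thus 16.7-fold and 16.2-fold lower in the control pools and 36.6-fold and 99.2-fold lower in the Runx1::Runx1t1 pools. Clonotypes of 2 to 4 cells already held only 57.4 to 118 CPM, so most of the fall lay between the first and the next size. The fit with the pool as a block gave a log2 fold change of -5.42 (SE 0.48, adjusted p = 0.0015, edgeR), among 24.4% of 11845 genes that passed.

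S1pr1 in single Cd8 T cells stood between 96.0 and 117 CPM in the 4 pools. In clonotypes of 5 or more cells it was 80.4 and 45.9 CPM in the control pools and 42.2 and 15.2 CPM in the Runx1::Runx1t1 pools, lower than in single cells in all 4 pools. The log2 fold change was -1.76 (SE 0.35, adjusted p = 0.014, edgeR). The lowest value, in Runx1::Runx1t1 pool 2, was 7.06-fold below the single cells of that pool, against 1.45-fold, 2.09-fold and 2.37-fold in the others. Without Runx1::Runx1t1 pool 1 the adjusted p was 0.070.

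S1pr5 in single Cd8 T cells was 2.78, 2.87, 2.43 and 1.85 CPM, a narrow range over the pools. In clonotypes of 5 or more cells it was 59.3 and 41.1 CPM in the control pools and 38.8 and 2.97 CPM in the Runx1::Runx1t1 pools. Expanded cells were 21.3-fold, 14.3-fold and 15.9-fold above single ones in the first 3 of these pools and 1.60-fold above them in Runx1::Runx1t1 pool 2, which stood apart. In that pool 1086 of the 2213 expanded cells were of 1 clonotype, which had no S1pr5 UMI. The log2 fold change over the 4 pools was 3.07 (SE 0.61, adjusted p = 0.014, edgeR). Without Runx1::Runx1t1 pool 2 it was 3.78 (adjusted p = 3.2e-06), and the call was lost without control pool 1 (2.72, adjusted p = 0.062) or without Runx1::Runx1t1 pool 1 (2.81, adjusted p = 0.091). After thinning to 2000 UMIs, 0.498 to 0.675% of single Cd8 T cells had an S1pr5 UMI, and of expanded ones 8.15 and 8.63% in the control pools and 7.44 and 0.819% in the Runx1::Runx1t1 pools.

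Cxcr4 in single Cd8 T cells was 213 and 178 CPM in the control pools and 217 and 225 CPM in the Runx1::Runx1t1 pools. In clonotypes of 5 or more cells it was 241 and 209 CPM in the control pools and 184 and 66.9 CPM in the Runx1::Runx1t1 pools. Expanded cells thus exceeded single ones by 28.3 and 31.4 CPM in the control pools and lay 32.9 and 158 CPM below them in the Runx1::Runx1t1 pools. After TMM scaling, which moved expanded against single cells by -0.23 to -0.33 on the log2 scale, the difference was -0.12 and 0.00 in the control pools and -0.54 and -2.07 in the Runx1::Runx1t1 pools, so the excess in the control pools was seen on total UMIs alone. Over the 4 pools the log2 fold change was -0.68 (SE 0.33, adjusted p = 0.18, edgeR), which missed the threshold, and the estimate without Runx1::Runx1t1 pool 2 was -0.23 (adjusted p = 0.21).

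Whether the clone size difference itself differed between the groups was tested as an interaction. Only 0.0158% of 12661 genes passed, and none of the 4 receptors did. The estimates were -1.94 for Ccr7 (SE 0.45, adjusted p = 0.16, edgeR), -1.24 for S1pr1 (SE 0.48, adjusted p = 0.30), -1.59 for S1pr5 (SE 0.92, adjusted p = 0.48) and -1.24 for Cxcr4 (SE 0.42, adjusted p = 0.27), each the extra change in the Runx1::Runx1t1 group on the log2 scale. For Ccr7 the outcome depended on the setting: DESeq2 gave -1.96 (adjusted p = 0.0063), and a limit of 10 cells for expanded clonotypes gave -2.86 (adjusted p = 0.020, edgeR).

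Cd4 T cells showed the same direction for Ccr7 and S1pr1. Ccr7 was 286, 279.5, 344 and 548 CPM in single Cd4 T cells of the control and then the Runx1::Runx1t1 pools, and 78.2, 15.6, 23.3 and 13.1 CPM in clonotypes of 5 or more cells. The log2 fold change was -3.95 (SE 0.49, adjusted p = 0.0028, edgeR), where 8.13% of 9720 genes passed. S1pr1 was 209, 191, 189.6 and 219 CPM in single and 98.7, 82.1, 48.9 and 39.9 CPM in expanded Cd4 T cells, lower in all 4 pools (-1.88, SE 0.21, adjusted p = 0.0020). Cxcr4 was 287, 219.9, 259 and 224 CPM in single and 343, 86.0, 177 and 175 CPM in expanded Cd4 T cells, lower in 3 of the 4 pools (-0.49, SE 0.20, adjusted p = 0.19). S1pr5 had too few UMIs in these sums to be tested.

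Both sizes were also limited to cells with at least 10 UMIs of Ccl5, a chemokine best known from memory and effector T cells. Ccr7 was still lower in expanded Cd8 T cells there (log2 fold change -4.30, SE 0.58, adjusted p = 0.0072, edgeR) and S1pr5 higher (2.21, SE 0.60, adjusted p = 0.049). S1pr1 missed the threshold there (-1.19, SE 0.38, adjusted p = 0.073), and in Cd4 T cells Ccr7 passed (-2.45, SE 0.40, adjusted p = 0.011) while S1pr1 did not (-1.18, SE 0.31, adjusted p = 0.065). Over all clone sizes the limit kept 2620 of 5934 and 3620 of 6720 Cd8 T cells in the control pools. In the Runx1::Runx1t1 pools it kept 3966 of 6705 and 4814 of 7103. The kept Cd8 T cells held 191 and 153 CPM of Ccr7 in the control and 262 and 256 CPM in the Runx1::Runx1t1 pools. Whether naive cells remained among them was not tested. This limit was chosen after the data were seen.

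Within the expanded cells, clonotypes of 20 or more Cd8 T cells were described 1 by 1. There were 30 such clonotypes with 2585 cells: 12 in Runx1::Runx1t1 pool 1, 14 in Runx1::Runx1t1 pool 2, 4 in control pool 2 and none in control pool 1. The 6 named here show the range of S1pr5 and were chosen by that value, and each is printed by the CDR3 bases of its beta chain, 5′ to 3′, in lower case, as in the deposited receptor contigs. The largest clonotype of each Runx1::Runx1t1 pool had little or no S1pr5, and the other 4 had much of it.
Runx1::Runx1t1 pool 2, TRAV6-6 with TRBV1: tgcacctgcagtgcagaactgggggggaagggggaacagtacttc
Runx1::Runx1t1 pool 1, TRAV9D-3 with TRBV17: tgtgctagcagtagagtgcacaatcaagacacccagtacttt
Runx1::Runx1t1 pool 1, TRAV16 with TRBV13-1: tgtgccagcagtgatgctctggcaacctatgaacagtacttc
Runx1::Runx1t1 pool 1, TRAV14-1 with TRBV12-2+TRBV13-2: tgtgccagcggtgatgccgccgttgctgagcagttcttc
Runx1::Runx1t1 pool 2, TRAV13N-1 with TRBV13-3: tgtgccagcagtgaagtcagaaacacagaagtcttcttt
Control pool 2, TRAV2 with TRBV13-1: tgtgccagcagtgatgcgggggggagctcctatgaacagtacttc

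The TRAV6-6 with TRBV1 clonotype held 1086 Cd8 T cells, the most of any clonotype in the 4 pools. It had no S1pr5 UMI among 6378679, which allows up to 0.470 CPM, and its Cxcr4 level was 21.6 CPM (138 UMIs, 95% exact Poisson interval 18.2 to 25.6, counting error only). Its Ccr7 level was 7.995 CPM (51 UMIs) and its S1pr1 level 5.02 CPM (32 UMIs). All 4 receptors were thus low in this clonotype, and 78.6% of its cells had UMIs of both Pdcd1 and Lag3, inhibitory receptors of chronically stimulated T cells. The TRAV9D-3 with TRBV17 clonotype (111 cells) had 1 S1pr5 UMI, a Cxcr4 level of 53.0 CPM and both Pdcd1 and Lag3 in 76.6% of cells.

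The TRAV16 with TRBV13-1 clonotype (22 cells) had the highest S1pr5 level of the 30, 258 CPM (32 UMIs, interval 177 to 364), together with 436 CPM of Cxcr4 and Klrg1, a marker of terminally differentiated effector cells, in 86.4% of cells. The TRAV14-1 clonotype (73 cells) held 119 CPM of S1pr5 (49 UMIs, interval 88.2 to 158) and 270.1 CPM of Cxcr4. In Runx1::Runx1t1 pool 2 the TRAV13N-1 clonotype (30 cells) was alone among the 14 in having an S1pr5 UMI, at 115 CPM (17 UMIs, interval 67.0 to 184). The TRAV2 clonotype of control pool 2 (22 cells) held 96.8 CPM (10 UMIs, interval 46.4 to 178). None of these 4 clonotypes had more than 6.67% of cells with both Pdcd1 and Lag3.

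**Figure D3:**
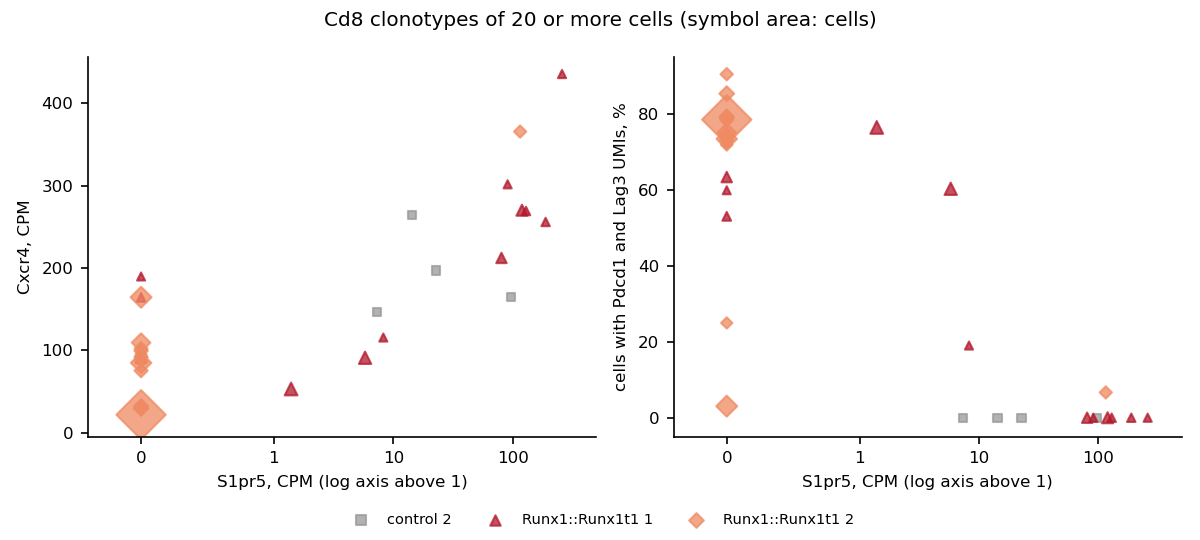
The 30 Cd8 clonotypes of 20 or more cells, each symbol 1 clonotype with an area that follows its number of cells, coloured by pool, with S1pr5 in CPM on the horizontal axis (logarithmic above 1) and Cxcr4 in CPM, or the percent of cells with Pdcd1 and Lag3 UMIs, on the vertical axis. The 8 clonotypes over 50 CPM of S1pr5 lay at 165 to 436 CPM of Cxcr4, and the 16 without an S1pr5 UMI lay at 21.6 to 189.6 CPM.

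Over the 30 clonotypes Ccr7 ran from 0 to 48.7 CPM (median 8.12) and S1pr1 from 0 to 196 CPM (median 24.5). S1pr5 had no UMI in 16 of them, 13 of the 14 of Runx1::Runx1t1 pool 2 and 3 of the 12 of Runx1::Runx1t1 pool 1, where a count of 0 allowed up to 0.470 to 25.9 CPM. It exceeded 50 CPM in 8, of which 6 came from Runx1::Runx1t1 pool 1. Those 8 had a median Cxcr4 level of 269.6 CPM, Klrg1 in 22.7 to 86.4% of cells and both Pdcd1 and Lag3 in 0 to 6.67%. The 16 without a UMI had a median Cxcr4 level of 91.8 CPM, Klrg1 in 0 to 68.3% and both Pdcd1 and Lag3 in 3.05 to 90.6% (median 74.4%). The 6 clonotypes in between had 53.0 to 265 CPM of Cxcr4. These limits were set after the values were seen and the clonotypes of a pool share its library, so no test is given.

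Subsets of Cd8 T cells cut by other genes placed the receptors further. Cells with at least 1 Ccl5 UMI carried 367 and 292 CPM of Ccr7 in the control pools and 488 and 515 CPM in the Runx1::Runx1t1 pools, below all Cd8 T cells of the same pool. They were most of the class: 3859 of 5934 and 4890 of 6720 cells in the control pools. In the Runx1::Runx1t1 pools they were 5598 of 6705 and 6550 of 7103. Whether naive cells were among them was not tested. Cells with Klrg1 carried 120.0 and 132 CPM of S1pr5 in the control pools and 90.0 and 30.6 CPM in the Runx1::Runx1t1 pools. The level was above that of all Cd8 T cells in every pool and lowest in Runx1::Runx1t1 pool 2. Klrg1 cells held 130 of the 280 S1pr5 UMIs of Cd8 T cells in control pool 1, 132 of 354 in control pool 2, 304 of 482 in Runx1::Runx1t1 pool 1 and 69 of 169 in Runx1::Runx1t1 pool 2, so in 3 of the 4 pools most lay in other cells. Cells with both Pdcd1 and Lag3 were few in the control pools (37 and 30) and many in the Runx1::Runx1t1 pools (404 and 1909). Their Cxcr4 level was 145 and 127 CPM in the control pools and 117 and 62.4 CPM in the Runx1::Runx1t1 pools, and their S1pr1 level 80.9 and 39.4 against 28.5 and 14.4 CPM. Both receptors were thus lower in these cells than in all Cd8 T cells of the same pool.

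**Figure D4:**
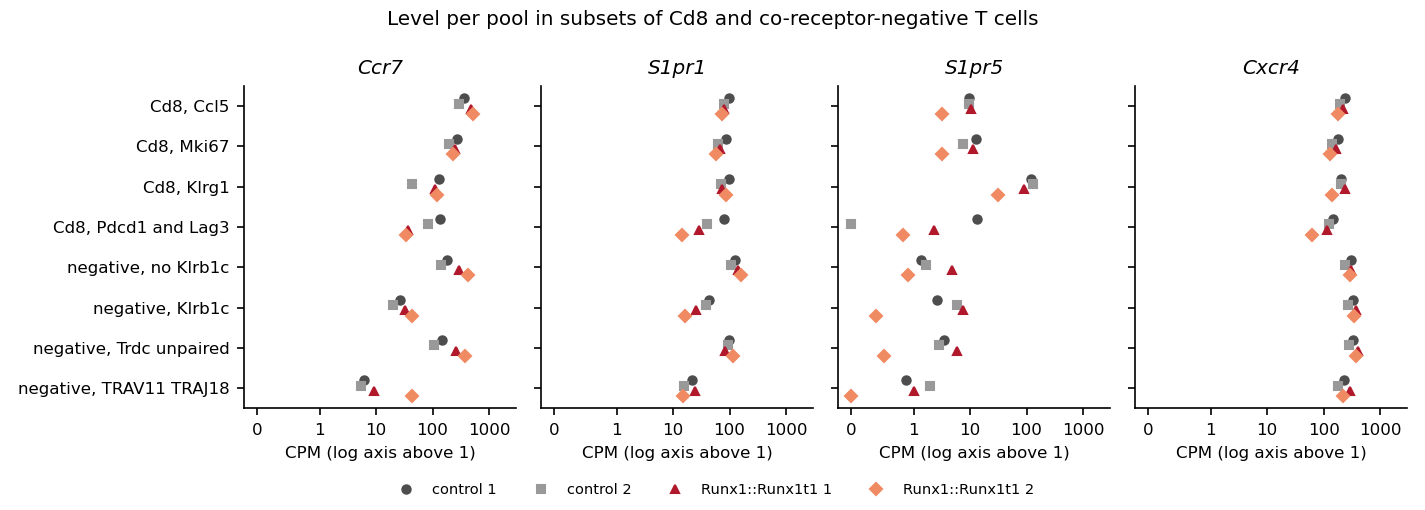
Levels of the 4 receptor genes in CPM (horizontal axes, logarithmic above 1) in subsets of Cd8 and co-receptor-negative T cells, 1 point per pool. Among these subsets Ccr7 was highest in Cd8 T cells with Ccl5 in every pool (292 to 515 CPM), S1pr5 in Cd8 T cells with Klrg1 (30.6 to 132 CPM), and Cxcr4 was lowest in Cd8 T cells with Pdcd1 and Lag3 of Runx1::Runx1t1 pool 2 (62.4 CPM). The subset with Ccl5, at 1 UMI or more, held most of the Cd8 T cells of each pool (3859 to 6550 cells).

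Cell by cell, over Cd8 T cells of at least 2000 UMIs thinned to 2000 UMIs each, S1pr5 and Ccr7 were rarely seen together. Of 392 cells with an S1pr5 UMI, 18 (4.59%) also had a Ccr7 UMI, against 44.1% of the cells without one, and the share was 3.64 to 5.84% in the 4 pools. S1pr1 was found in 14.0% of S1pr5 cells and in 17.1% of the others. Cxcr4 was found in 37.5% of S1pr5 cells and in 28.8% of the others, higher in all 4 pools. Ccr7 and S1pr1 went together: S1pr1 was found in 24.5% of cells with Ccr7 and in 11.3% of cells without. Cells are not replicates, so these shares are given without a test.

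Co-receptor-negative T cells are a mixture, and the receptors split along it. In cells with Klrb1c, the NK1.1 gene of NKT and NK cells, Ccr7 was 26.7, 20.03, 32.9 and 42.8 CPM in the control and then the Runx1::Runx1t1 pools. In cells without Klrb1c it was 179, 144, 297 and 420.3 CPM, higher in every pool. S1pr1 followed the same split, with 43.2, 38.0, 24.97 and 16.6 CPM in cells with Klrb1c and 123, 108, 142 and 161 CPM in cells without, while Cxcr4 was 271 to 379 CPM with and 242 to 303 CPM without. Cells with the TRAV11 with TRAJ18 chain of invariant NKT cells carried 6.15, 5.36, 9.11 and 43.9 CPM of Ccr7 and 15.1 to 24.3 CPM of S1pr1. Cells with Trdc, the constant region of the delta chain, and no paired alpha and beta chains carried 144, 105, 259 and 369.5 CPM of Ccr7.

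Between the Runx1::Runx1t1 and control groups, Ccr7 was higher in the Runx1::Runx1t1 group in Foxp3 and in co-receptor-negative T cells, and S1pr1 was lower in its Cd4 T cells. None of the other differences passed in a class taken whole. In each sum 2 pools stood against 2, so an exact permutation test of a single value could not go below p = 0.333, and the calls rest on the fits over all genes.

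**Figure D5:**
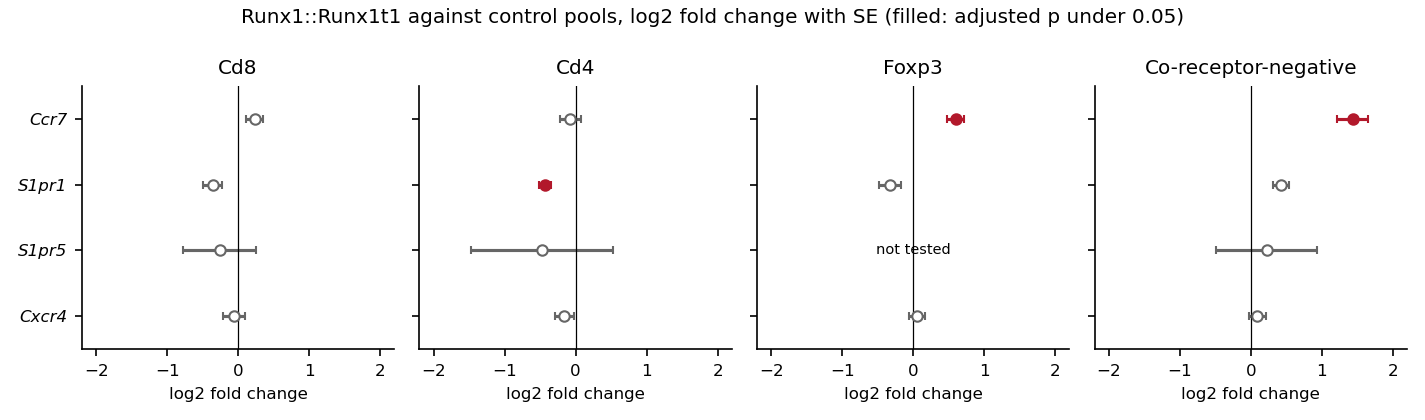
Log2 fold changes of the Runx1::Runx1t1 against the control group (horizontal axis) for the 4 receptor genes in each T cell class, points with bars of 1 SE from the edgeR fits, filled where the adjusted p was under 0.05. Filled points were Ccr7 in Foxp3 (0.60) and in co-receptor-negative T cells (1.43), and S1pr1 in Cd4 T cells (-0.43).

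In Cd8 T cells none of the 4 receptors passed, in a contrast in which 0.113% of 13296 genes did and 2838 genes had an unadjusted p under 0.05. Ccr7 gave a log2 fold change of 0.23 (SE 0.12, adjusted p = 0.33, edgeR) and S1pr1 -0.36 (SE 0.14, adjusted p = 0.22). S1pr5 gave -0.26 (SE 0.51, adjusted p = 0.80) and Cxcr4 -0.06 (SE 0.15, adjusted p = 0.86). The share of expanded cells differed between the groups, so single and expanded cells were also compared on their own, a choice made after the data were seen. With 1 cell per clonotype Ccr7 was higher in the Runx1::Runx1t1 group (0.65, SE 0.11, adjusted p = 0.029, edgeR). Among Cd8 T cells seen once, Ccr7 was also higher in the Runx1::Runx1t1 group (0.67, SE 0.11, adjusted p = 0.021), where 5.08% of genes passed, while S1pr1 gave -0.02 (SE 0.09, adjusted p = 0.92) and Cxcr4 0.19 (SE 0.09, adjusted p = 0.22). Among those of clonotypes of 5 or more cells, 0% of 10082 genes passed in edgeR and 1668 had an unadjusted p under 0.05. There the estimates were -1.21 for Ccr7 (SE 0.43, adjusted p = 0.26), -1.16 for S1pr1 (SE 0.54, adjusted p = 0.35), -1.34 for S1pr5 (SE 1.07, adjusted p = 0.57) and -0.90 for Cxcr4 (SE 0.47, adjusted p = 0.39). The Ccr7 estimates of single and expanded Cd8 T cells thus had opposite signs, and the interaction that tests their difference did not pass in edgeR and passed in DESeq2, as given above. S1pr5 in whole Cd8 T cells turned on 1 library: without Runx1::Runx1t1 pool 1 it was -1.33 (adjusted p = 0.0084) and without Runx1::Runx1t1 pool 2 it was 0.35 (adjusted p = 0.33).

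In Cd4 T cells S1pr1 was 189.8 and 178 CPM in the control and 134 and 130.0 CPM in the Runx1::Runx1t1 pools, without overlap (log2 fold change -0.43, SE 0.08, adjusted p = 0.035, edgeR), where 3.04% of 11267 genes passed. The call was lost without Runx1::Runx1t1 pool 2 (-0.40, adjusted p = 0.13) or without control pool 1 (-0.42, adjusted p = 0.056). Among Cd4 T cells seen once, S1pr1 gave 0.08 (SE 0.09, adjusted p = 0.80), and among those of clonotypes of 5 or more cells -0.99 (SE 0.21, adjusted p = 0.17), contrasts in which 0.336% and 0.112% of genes passed. The share of Cd4 T cells in clonotypes of 5 or more cells was 15.01 and 7.77% in the control and 32.5 and 39.6% in the Runx1::Runx1t1 pools. Ccr7 gave -0.07 (SE 0.15, adjusted p = 0.82) in all Cd4 T cells and 0.70 (SE 0.17, adjusted p = 0.20) in those seen once. Cxcr4 gave -0.16 (SE 0.13, adjusted p = 0.54) and S1pr5, with 1 library at 0.165 CPM, -0.48 (SE 1.0, adjusted p = 0.83). No receptor differed between the group effects in Cd8 and Cd4 T cells (adjusted p 0.76 to 0.92), where 0.277% of 13362 genes passed.

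In Foxp3 T cells Ccr7 was 153 and 183 CPM in the control and 242 and 263 CPM in the Runx1::Runx1t1 pools, without overlap. The log2 fold change was 0.60 (SE 0.11, adjusted p = 0.014, edgeR), where 3.37% of 10084 genes passed, and the call was lost without Runx1::Runx1t1 pool 2 (0.56, adjusted p = 0.077). After thinning to 2000 UMIs the share of Foxp3 T cells with a Ccr7 UMI was 15.2 and 20.2% in the control and 17.3 and 19.6% in the Runx1::Runx1t1 pools, which overlapped. Neutrophil and monocyte genes reached 458 and 292 CPM in the control and 7.86 and 7.56 CPM in the Runx1::Runx1t1 pools of this class, and their part in the difference was not tested. S1pr1 gave -0.33 (SE 0.15, adjusted p = 0.36) and Cxcr4 0.05 (SE 0.12, adjusted p = 0.91), and S1pr5 was at 0 in all 4 pools.

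In co-receptor-negative T cells Ccr7 was 96.7 and 79.2 CPM in the control and 186 and 317 CPM in the Runx1::Runx1t1 pools, with a log2 fold change of 1.43 (SE 0.22, adjusted p = 0.020, edgeR), where 3.32% of 12624 genes passed. The thinned share of cells with a Ccr7 UMI was 13.3 and 10.6% in the control and 19.3 and 28.3% in the Runx1::Runx1t1 pools. It leaves out cells under 2000 UMIs, 405 of 4528 and 279 of 4224 in the control pools. In the Runx1::Runx1t1 pools these were 364 of 2546 and 326 of 1661. The unthinned share was 23.7 and 20.5% in the control and 27.6 and 33.1% in the Runx1::Runx1t1 pools. S1pr1 was 80.0 and 71.5 CPM against 92.8 and 122 CPM and missed the threshold in edgeR (0.42, SE 0.11, adjusted p = 0.10; adjusted p = 0.040 in DESeq2), as did Cxcr4 (0.09, SE 0.12, adjusted p = 0.72) and S1pr5 (0.22, SE 0.71, adjusted p = 0.90). The makeup of this class moved with the group. Klrb1c, which goes with low Ccr7 and S1pr1, was found in 49.0 and 49.0% of its cells in the control and in 32.1 and 19.3% in the Runx1::Runx1t1 pools. Neutrophil and monocyte genes reached 1889 and 550.2 CPM in the control and 38.9 and 71.4 CPM in the Runx1::Runx1t1 pools, and the part of either in the result was not tested. Within cells without Klrb1c Ccr7 was also higher in both Runx1::Runx1t1 pools (297 and 420.3 against 179 and 144 CPM), and within cells with Klrb1c too (32.9 and 42.8 against 26.7 and 20.03 CPM). S1pr1 went in opposite directions in these subsets. It was higher in both Runx1::Runx1t1 pools without Klrb1c (142 and 161 against 123 and 108 CPM) and lower in both with Klrb1c (24.97 and 16.6 against 43.2 and 38.0 CPM). With the stricter gate, which kept only cells of at least 6000 UMIs as co-receptor-negative, the Ccr7 call was lost (1.18, SE 0.22, adjusted p = 0.069) and S1pr1 gave 0.041 (SE 0.13, adjusted p = 0.92). With 1 cell per clonotype S1pr1 passed (0.72, SE 0.10, adjusted p = 0.0053, edgeR).

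Interaction tests added after the data were seen compared these group effects between classes. The group effect on Ccr7 was larger in co-receptor-negative than in Cd4 T cells by 1.49 (SE 0.15, adjusted p = 0.0045, edgeR), where 2.45% of 12350 genes passed. For S1pr1 the gap was 0.85 (SE 0.12, adjusted p = 0.016, edgeR), and this call was lost without control pool 1 or control pool 2. With each class taken whole, S1pr1 was lower in Cd4 and higher in co-receptor-negative T cells of both Runx1::Runx1t1 pools than of both control pools. Within co-receptor-negative T cells with Klrb1c it was lower in both Runx1::Runx1t1 pools, as given above. The stricter gate was not run for these interactions. Against Cd8 T cells the gaps were 1.16 for Ccr7 (SE 0.26, adjusted p = 0.14) and 0.77 for S1pr1 (SE 0.19, adjusted p = 0.17), where 0.0146% of 13687 genes passed.

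Genes of the receptors' pathway were followed over the same contrasts. Of 3 further sphingosine-1-phosphate receptors 2 could be tested, and S1pr3, at most 0.244 CPM in any class, was too low. S1pr2, a receptor known to restrain migration, rose in expanded Cd8 T cells (log2 fold change 1.20, SE 0.27, adjusted p = 0.022, edgeR), while S1pr4 did not pass. Of 15 genes that set the level or use of the receptors, 4 rose and 4 fell in expanded Cd8 T cells, beside 24.4% of all genes that passed. Klf2, the factor that drives S1pr1, fell (-2.17, SE 0.42, adjusted p = 0.013), as did Foxo1, which acts upstream of Klf2 and Ccr7 (-0.64, SE 0.07), Grk6 (-0.49) and Arrb1 (-0.80). Zeb2 and Tbx21, effector factors known to be needed for S1pr5, rose (2.8, SE 0.33, adjusted p = 0.0029, and 1.32, SE 0.10), as did Eomes (0.80) and Rgs1, an inhibitor of chemokine receptor signalling (1.65, SE 0.09). The list's median log2 fold change was -0.01, beside 0.00 over all genes. Of 7 adhesion genes, Itga4, Itgb1, Itgal and Itgb2 rose (0.78 to 1.66) and none fell, beside the same 24.4%.

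Expanded Cd4 T cells showed 2 of the 15 regulators higher (Zeb2 at 1.30 and Rgs1 at 0.72) and 3 lower (Klf2 at -1.75, Klf3 at -0.90 and Foxo1 at -0.78), and of the 7 adhesion genes Itga4 and Itgal higher, beside 8.13% of all genes that passed. Between the groups few of these genes passed, beside 0.113% of all genes in Cd8, 3.04% in Cd4, 3.37% in Foxp3 and 3.32% in co-receptor-negative T cells. Eomes was higher in Cd8 T cells of the Runx1::Runx1t1 group (1.15, SE 0.08, adjusted p = 0.045, edgeR) and in its Cd4 T cells (2.83, SE 0.32, adjusted p = 0.0065). In Cd4 T cells Rgs1 and Itgb2 also rose, and Klf3 fell. In co-receptor-negative T cells Rgs1 rose (0.79, SE 0.10), and Tbx21 fell, while in Foxp3 T cells none of the 15 regulators and 7 adhesion genes passed. Klf2, which tracks S1pr1 in textbook accounts, passed in none of the 4 group contrasts.

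Between the classes, Cd4 T cells had more S1pr2 (0.77) and S1pr4 (0.28) than Cd8 T cells and less Klf2 (-1.11, SE 0.09), Cd69, Zeb2, Grk2 and Grk6. Of the adhesion genes 6 were higher, with Itgb1 at 1.65, and Selplg was lower, beside 37.6% of all genes that passed. On total UMIs 86.6% of the genes called in this contrast were higher, against 51.7% with TMM. Foxp3 T cells had more Foxo1, Gna13, Arrb1 and Rgs2 than Cd4 T cells, and less Klf3, Tbx21, Eomes (-3.08, SE 0.53) and Arrb2. Of the 7 adhesion genes Itgb7 (0.89) was higher in Foxp3 T cells, and Cd44, Itga4, Itgb1, Itgal and Itgb2 lower, beside 24.5% of all genes that passed. Co-receptor-negative T cells had less Klf2 (-0.75), Klf3 and Foxo1 than Cd8 T cells and more Tbx21, Gna13, Arrb1 and Rgs2, with 4 adhesion genes higher, beside 28.7% of all genes that passed. Of 10 genes that make, clear or supply the ligands, 3 to 5 could be tested in the contrasts of classes, clone sizes and groups. The chemokine genes Ccl19, Ccl21a and Cxcl12 were too low to be among them. Sgpl1, the lyase that degrades sphingosine-1-phosphate, passed in Cd4 against Cd8 T cells (0.25, SE 0.07), and Spns2, its exporter, in co-receptor-negative against Cd8 T cells (1.84, SE 0.50).

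The genes whose pattern was most like each receptor were sought over 32 sums (4 pools, with Cd8 and Cd4 T cells divided by clone size) among 5772 genes with a mean of at least 20 CPM. By Pearson's r of log2(CPM + 1), Ccr7 was followed by Klf2 (0.89), Sh3bp5 (0.87), Lef1 (0.86), Nsg2 (0.85) and Naca (0.83). S1pr1 was followed by Dgka (0.92), Il6ra (0.90), Pecam1 (0.90), Rgcc (0.90) and Adk (0.88), and S1pr5 by Armc7 (0.83), Ube2g2 (0.83), Snhg3 (0.83), Atp5h (0.82) and Zeb2 (0.80). Cxcr4 was followed by Rab37 (0.84), Chd4 (0.81), Cux1 (0.78), Il18r1 (0.78) and Klf4 (0.74). Among themselves Ccr7 and S1pr1 had an r of 0.74, Cxcr4 and S1pr1 0.62, and S1pr5 was negative with each of the others (-0.44 with Ccr7, -0.48 with S1pr1, -0.31 with Cxcr4). The 32 sums share libraries and differ in depth, so these values only describe them.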

How the data were processed

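T cells were enriched from bone marrow, sorted as DAPI-, mCherry- and CD3+, and profiled with 10x Genomics 5′ gene expression and V(D)J libraries. The authors aligned reads to GRCm38 and counted UMIs with Cell Ranger 6.1.2, and deposited raw counts per gene and barcode and a table of receptor contigs for each of the 4 pools, with no cell annotation.

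Barcodes were kept from 200 genes up and up to 15% of mitochondrial UMIs, and doublets were removed per pool with Scrublet (scanpy 1.11.5), which left 53033 of 56649 barcodes. In a pool where its automatic threshold marked under 0.5%, the top 5% of scores was removed in its place. No cell clustering was used. Clonotypes were defined by the CDR3 nucleotides of the alpha and beta chain with the most UMIs, within a pool. UMIs were summed per pool and class (sums of at least 20 cells) and tested with edgeR 4.0.16 in R 4.3.3 (TMM, filterByExpr, glmQLFTest, Benjamini-Hochberg over all genes tested, threshold 0.05), with the pool as a block between classes and clone sizes and no block between groups. DESeq2 1.42.0 was an alternative. Simulated counts were run for the group difference in Cd8 T cells, Cd4 against Cd8 T cells and clone size in Cd8 T cells. The other fits were not simulated. A log2 fold change is of TMM-scaled counts, and its SE follows from the quasi-likelihood F statistic. Shares and Poisson intervals cover counting error only.

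The genes described, the pathway lists and the subsets were chosen with earlier results of these data known. Named genes were the 4 receptors, fixed lists of 3 further sphingosine-1-phosphate receptors, 15 regulators, 7 adhesion genes and 10 ligand supply genes, and the 5 genes nearest in pattern to each receptor. A further adhesion gene, and a subset of Cd8 T cells cut by it, are not reported here. Marker lists of B cells, progenitors, erythroid cells and NK cells were also summed. Over all T cells they reached 11.9 to 16.0, 32.8 to 60.5, 24.6 to 38.7 and 295 to 563 CPM. Limits of size, Ccl5 and S1pr5 level named in the text as set after the data were seen had that status.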

Additional observations from a re-analysis of the deposited data

Results flagged for a closer look

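Cxcr4 in Cd8 T cells was flagged because its CPM in clonotypes of 5 or more cells, less that in clonotypes seen once, had opposite signs in the groups. The difference was -32.9 and -158 CPM in Runx1::Runx1t1 pools 1 and 2, and 28.3 and 31.4 CPM in control pools 1 and 2. The test of the difference itself gave -1.24 on the log2 scale (SE 0.42, adjusted p = 0.27, edgeR) and did not pass, and after TMM scaling the control pools gave -0.12 and 0.00.

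The group effects on Ccr7 and S1pr1 were flagged because they differed between co-receptor-negative and Cd4 T cells in the interaction test, by 1.49 for Ccr7 (adjusted p = 0.0045, edgeR) and by 0.85 for S1pr1 (adjusted p = 0.016). Both classes were taken whole there, and within co-receptor-negative T cells with Klrb1c S1pr1 was lower in both Runx1::Runx1t1 pools than in both control pools. Groups of 2 pools were too small for an outlier test.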

How the results depend on the processing

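For the 4 receptors, 576 estimates under an alternative were set against their main value, and 489 kept direction and side of the threshold, 41 gained a call, 14 lost it and 32 turned sign. The cause was not tested for a lost call or a turned sign, other than where the setting removes cells or pools. All alternatives named here as added were chosen after seeing the data: single or expanded cells only, cells with Ccl5, and total UMIs in place of TMM. S1pr5 rests on few UMIs, and with 2 pools per group a left-out pool leaves a lone one that is assumed to vary like the others.

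The number of genes called between the groups depended on the setting. In Cd8 T cells it was 15, against 867 with DESeq2, 852 without a filter on low counts, 554 with 1 cell per clonotype, 506 without the largest clonotype of each pool, 636 in cells seen once and 0 in expanded cells (1668 at an unadjusted p under 0.05, edgeR). In Cd4 T cells it was 342, against 795 without a filter, 35 with 1 cell per clonotype, 34 in cells seen once and 10 in expanded cells. In Foxp3 T cells it was 340, against 184 with DESeq2 and 773 without a filter. In co-receptor-negative T cells it was 419, against 695 with 1 cell per clonotype and 174 with the stricter gate. The interaction of Cd8 and Cd4 T cells gave 37 and 261 without a filter. The interaction of clone size and group gave 2, against 133 with DESeq2, 761 without a filter, 0 with expanded from 2 cells up (2137 at an unadjusted p under 0.05, edgeR), 136 from 10 cells up and 83 without the largest clonotypes. Clone size in Cd4 T cells gave 790, 1221 without a filter and 296 with Ccl5 alone. On total UMIs, Cd4 against Cd8 T cells gave 6996 genes in place of 4601 and clone size in Cd8 T cells 4970 in place of 2895, and the share of called genes that were higher went from 51.7 to 86.6% and from 47.6 to 82.3%. That share also went from 55.2 to 89.4% for co-receptor-negative against Cd8 T cells, from 43.7 to 57.3% for clone size in Cd4 T cells, from 64.9 to 75.8% for the interaction of Cd8 and Cd4 T cells and from 60.3 to 81.8% for that of co-receptor-negative and Cd4 T cells.

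With 1 cell per clonotype the group estimate was 0.18 for Cxcr4 in Cd8, 0.61 for Ccr7 and 0.042 for S1pr1 in Cd4, and -0.31 for S1pr5 in co-receptor-negative T cells, and calls were gained by Ccr7 in Cd8 (0.65) and S1pr1 in co-receptor-negative T cells (0.72). In cells seen once it was 0.19 for Cxcr4 in Cd8, and 0.70 for Ccr7 and 0.080 for S1pr1 in Cd4 T cells, and in expanded cells -1.21 for Ccr7 in Cd8 and -0.99 for S1pr1 in Cd4 T cells. Without the largest clonotypes Cxcr4 in Cd8 T cells gave 0.024. The stricter gate gave 1.18 for Ccr7 and 0.041 for S1pr1 in co-receptor-negative T cells, -0.43 for Ccr7 and -0.66 for S1pr1 in Cd4 T cells, and a call for S1pr1 in co-receptor-negative against Cd8 T cells (-0.74). Cxcr4 in Cd4 against Cd8 T cells gave 0.25 on total UMIs and 0.0040 without doublet removal. With Ccl5 alone S1pr1 by clone size gave -1.19 in Cd8 and -1.18 in Cd4 T cells.

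Leaving out each pool in turn gave 3 to 1680 called genes between the groups in Cd8, 323 to 866 in Cd4, 205 to 495 in Foxp3 and 157 to 907 in co-receptor-negative T cells. It gave 1706 to 2563 genes for Foxp3 against Cd4 T cells (2994 with all pools), 2033 to 3492 for co-receptor-negative against Cd8 T cells, 805 to 2780 and 225 to 1140 for clone size in Cd8 and Cd4 T cells, 4 to 546 for the interaction of Cd8 and Cd4 T cells and 0 to 1511 for that of clone size and group. The group estimates then ran from -1.33 to 0.35 for S1pr5 and -0.25 to 0.12 for Cxcr4 in Cd8 T cells, and in Cd4 T cells from -0.32 to 0.13 for Ccr7, -0.47 to -0.40 for S1pr1, -4.19 to 0.48 for S1pr5 and -0.34 to 0.046 for Cxcr4. They ran from 0.46 to 0.75 for Ccr7 and -0.091 to 0.21 for Cxcr4 in Foxp3 T cells, and from -2.02 to 0.97 for S1pr5 and -0.050 to 0.25 for Cxcr4 in co-receptor-negative T cells. Cxcr4 in Cd4 against Cd8 T cells ran from -0.056 to 0.029, and by clone size in Cd8 T cells S1pr1 ran from -2.02 to -1.28 and S1pr5 from 2.72 to 3.78. The group difference in Cd8 less that in Cd4 T cells ran from -0.065 to 0.20 for S1pr1, -0.14 to 2.93 for S1pr5 and -0.029 to 0.20 for Cxcr4, and that in co-receptor-negative less that in Cd8 T cells from -0.67 to 0.72 for S1pr5.

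Same-numbered pools deviated together (r across genes 0.30 in Cd8, 0.14 in Cd4, 0.17 in Foxp3 and 0.34 in co-receptor-negative T cells), but there are only 2 pairs and the labels name no shared source, so they share only a number. With the replicate number as a block, 869 genes were called in Cd8, 415 in Cd4, 513 in Foxp3 and 1657 in co-receptor-negative T cells, and S1pr1 then passed in Cd8 (adjusted p = 0.040) and in co-receptor-negative T cells (adjusted p = 0.0069, edgeR). Without the pool as a block, co-receptor-negative against Cd8 T cells gave 1994 genes in place of 3507, and S1pr5 gave -1.18 there and -1.47 in Cd4 against Cd8 T cells.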

Other observations

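S1pr5 in Cd8 T cells with Klrg1 was also given by clone size. In those seen once it was 119 and 89.4 CPM in control pools 1 and 2, and 36.2 and 23.5 CPM in Runx1::Runx1t1 pools 1 and 2. In those of clonotypes of 5 or more cells it was 106 and 149 CPM in the control pools and 127 and 27.6 CPM in the Runx1::Runx1t1 pools. Among those seen once both Runx1::Runx1t1 pools (24 and 12 UMIs) thus lay below both control pools (38 and 31 UMIs). Among clonotypes of 5 or more cells Runx1::Runx1t1 pool 2 alone did (22 UMIs in 90 cells). The Ccr7 level of Cd8 T cells with Klrg1 fell with size in every pool. It went from 332 and 377 to 25.5 and 11.3 CPM in the Runx1::Runx1t1 pools and from 132 and 107 to 15.2 and 5.74 CPM in the control pools. These values were looked up after the clone size results were known and carry no test.

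Cd8 T cells with Mki67, a gene of dividing cells, held 273 and 198 CPM of Ccr7 in the control pools and 247 and 227 CPM in the Runx1::Runx1t1 pools, below all Cd8 T cells of the same pool. Their S1pr1 level was 85.0, 63.3, 68.3 and 58.7 CPM and their Cxcr4 level 180.2, 139.7, 164 and 129 CPM, in the same order of pools, each below that of all Cd8 T cells of the pool. Expanded co-receptor-negative T cells had no S1pr5 UMI in control pool 1 (33 cells, allowing up to 23.1 CPM) and Runx1::Runx1t1 pool 2 (114 cells, up to 5.47 CPM). Their level was 103.1 CPM in control pool 2 (89 cells) and 47.8 CPM in Runx1::Runx1t1 pool 1 (164 cells).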
